A study of Mus musculus with 8 samples.

Results

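The miR-181 family is described here by 7 mature products of its 3 genomic clusters, mmu-miR-181a-5p, mmu-miR-181b-5p, mmu-miR-181c-5p, mmu-miR-181d-5p, mmu-miR-181a-1-3p, mmu-miR-181a-2-3p and mmu-miR-181c-3p (the prefix for the mouse is left out below), all of which are among the 422 miRNAs of the deposited table. They were chosen by name, not by a measured difference. A further 2 products of the same hairpins, miR-181b-1-3p and miR-181b-2-3p, were counted as well and are given beside them. Small RNA libraries were made from the hippocampi of 4 mice of the inbred strain BTBR T+ Itpr3tf/J (BTBR), which is studied as a model of idiopathic autism and is born without a corpus callosum, and of 4 C57BL/6J (B6) control mice. All were adult males of 12 weeks bred in the same vivarium, and each library came from the tissue of a single mouse. The hippocampus was punched from brain slices as whole tissue, so that neurons, glia and vessels were mixed. In such tissue, fewer cells of a type and less miRNA per cell cannot be told apart.

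A miRNA is cut from a hairpin as a duplex of its 5p and 3p arms, of which one, the guide, is mostly kept in an Argonaute protein and the other, the passenger, is mostly degraded. Bases 2 to 8 of the guide, the seed, pair with sites in messenger RNAs, which are then repressed or destabilized. In mice miR-181 is made from 6 hairpins in 3 pairs. miR-181a is known for setting the sensitivity of the T-cell receptor during thymocyte development, and in neurons for repressing the AMPA receptor subunit GluA2, and the family is abundant in brain.

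The mature sequences (RefSeq, GRCm38.p6) show which products can stand for a single gene pair. They are written 5′ to 3′ with the seed in capitals. The 4 guides carry the same seed, and no other of the 1679 mature mouse miRNAs in the RefSeq table has it.
miR-181a-5p: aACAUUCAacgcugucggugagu
miR-181b-5p: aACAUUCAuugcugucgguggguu
miR-181c-5p: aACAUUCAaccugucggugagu
miR-181d-5p: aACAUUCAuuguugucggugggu
The passenger arms differ between hairpins, and are shown because they tell the loci of miR-181a and miR-181b apart.
miR-181a-1-3p: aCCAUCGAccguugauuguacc
miR-181a-2-3p: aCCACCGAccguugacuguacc
miR-181c-3p: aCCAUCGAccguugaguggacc
miR-181b-1-3p: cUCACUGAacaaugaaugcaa
miR-181b-2-3p: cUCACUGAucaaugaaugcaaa
Positions are counted from 1 at the 5′ end, and the base of the reference miRNA stands first. Against miR-181a-5p, miR-181b-5p differs by A9U, C10U and A21G and is 1 base longer. Against miR-181b-5p, miR-181d-5p differs by C12U and is 1 base shorter. miR-181c-5p equals miR-181a-5p with 1 base, at position 11, removed. Against miR-181a-1-3p, miR-181a-2-3p differs by U5C and U16C, the first of them inside the seed, and miR-181c-3p by U16G and U19G, both outside it, so that miR-181a-1-3p and miR-181c-3p share a seed.

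miR-181a-5p and miR-181b-5p are each made from 2 loci with the same mature sequence, and their reads cannot be divided between these. On chromosome 1 of GRCm38 lie Mir181a-1 (137966455 to 137966541) and Mir181b-1 (137966639 to 137966718), 97 bases apart on the plus strand, in an intron of the non-coding transcript Gm4258. Mir181a-1 also reaches into an exon of the lincRNA A430106G13Rik, and Mir181b-1 lies within an exon of it. On chromosome 2 lie Mir181a-2 (38852735 to 38852810) and Mir181b-2 (38853830 to 38853918), 1019 bases apart on the plus strand, opposite in strand to an intron of Nr6a1, which encodes an orphan nuclear receptor. On chromosome 8 lie Mir181d (84178716 to 84178787) and Mir181c (84178873 to 84178961), 85 bases apart on the minus strand, in an intron of Nanos3 on the same strand, a gene known from germ cells.

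The libraries held 5078301 to 5792967 reads counted on miRNAs in B6 mice and 2247482 to 7904990 in BTBR mice. BTBR replicate 2 was the shallowest of the 8 and stood apart: its levels differed from the mean of the other mice of its strain by a median of 0.62 on the log2 scale over all 422 miRNAs, in either direction, against 0.23 to 0.41 in the other 7 libraries. Levels are given as CPM (read counts relative to the library's scaled total) after TMM normalization, which scales the libraries to each other. All 6 miRNAs of a list typical of brain, among them miR-124-3p, were measured, with summed levels of 49923 to 79481 CPM in B6 and 59738 to 69387 CPM in BTBR. Of the lists for other cells, 6 of 6 choroid plexus, 2 of 2 oligodendrocyte, 2 of 2 lymphocyte, 4 of 4 red blood cell and 2 of 3 myeloid miRNAs were measured. In all 6 lists the summed levels of the strains overlapped, and miR-223-3p of the myeloid list was not among the miRNAs of the table. Of the listed miRNAs 1 passed the threshold of 0.1, miR-451a of red blood cells, which was higher in BTBR (log2 fold change 1.38, standard error 0.26, adjusted p = 0.0339, edgeR quasi-likelihood fit).

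The 4 guides made up 5.70% to 7.07% of all miRNA reads in B6 mice and 3.77% to 8.11% in BTBR mice. miR-181a-5p carried most of this, with 81.6% to 84.6% of the guide reads in the 8 libraries, and had rank 5 by mean level among all miRNAs measured. miR-181d-5p followed with 6.95% to 9.22%, miR-181c-5p with 5.25% to 7.28% and miR-181b-5p with 3.09% to 3.97%. Reads span the whole mature miRNA, so these levels needed no correction for length, but the efficiency of adapter ligation can differ between sequences. The order of the guides was the same in every library except B6 replicate 4, where miR-181c-5p was just above miR-181d-5p, at 0.987 reads of miR-181d-5p per read of miR-181c-5p. miR-181d-5p and miR-181c-5p were also the closest neighbours, with ratios up to 1.75, while miR-181a-5p had 8.84 to 12.2 times the reads of miR-181d-5p.

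The 3 passenger arms among the members added 0.844% to 1.51% of the family's reads. miR-181c-3p, from chromosome 8, was the most abundant of them in every library, followed by miR-181a-2-3p from chromosome 2 and miR-181a-1-3p from chromosome 1. The locus-specific arms of miR-181a were far apart, with 12.7 to 55.2 reads of miR-181a-2-3p for each read of miR-181a-1-3p. For miR-181b the order of the chromosomes was the other way round, with 0.220 to 0.882 reads of miR-181b-2-3p per read of miR-181b-1-3p in the 8 libraries. The passenger arms of chromosome 1 had similar levels, with 0.747 to 1.76 reads of miR-181a-1-3p per read of miR-181b-1-3p. This ratio was lower in every BTBR mouse than in every B6 mouse, but it was not among the ratios tested. B6 replicates 1 to 3 had more of miR-181a-1-3p, and B6 replicate 4 and all BTBR mice had more of miR-181b-1-3p. Some of these orders rest on few reads, with 60 of miR-181a-1-3p against 64 of miR-181b-1-3p in B6 replicate 4. In BTBR replicate 2 there were 10 against 11. These mice gave the lowest B6 ratio and the highest BTBR ratio, so the lack of overlap also rests on few reads. On chromosome 2 miR-181a-2-3p was far above miR-181b-2-3p.

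**Figure D1:**
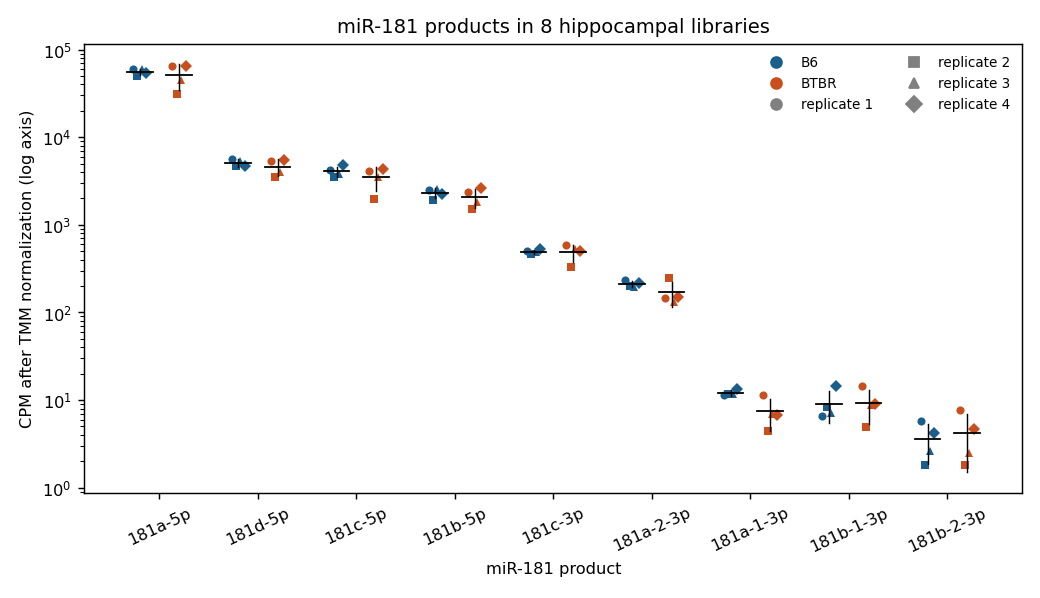
Level of each miR-181 product in the 8 libraries, in CPM after TMM normalization on a log axis, with products in descending order of the B6 mean. Points are single mice (blue B6, orange BTBR, shape by replicate), horizontal bars the mean and vertical bars the SD of 4 mice; the levels span from about 55839 CPM for miR-181a-5p to 3.62 CPM for miR-181b-2-3p in B6 mice, and BTBR replicate 2 (orange square) is the lowest BTBR point for 6 of the 7 members.

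Whether the family differed between the strains was asked first for the guides. miR-181a-5p had 59880.2, 49988, 59837 and 53652 CPM in the controls and 64816, 30984, 44601 and 64634 CPM in BTBR, in the order of their replicate numbers. BTBR replicates 1 and 4 lay above all B6 mice and replicates 2 and 3 below them, so that the BTBR range enclosed the B6 range. The means were 55839 ± 4876 CPM for B6 and 51259 ± 16514 CPM for BTBR (SD, n = 4), a log2 fold change of −0.12 (standard error 0.23, 95% interval −0.63 to 0.38, adjusted p = 0.881, edgeR quasi-likelihood fit, Benjamini-Hochberg over the 422 miRNAs). Differences inside this interval could not be resolved with 4 mice a strain.

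The other guides gave the same picture. miR-181d-5p ranged from 4670.0 to 5714 CPM in B6, and from 3503 to 5537 CPM in BTBR, and its log2 fold change was −0.15 (95% interval −0.58 to 0.27). miR-181c-5p, from the same intron of Nanos3, ranged from 3496 to 4759 CPM in B6, and from 1997 to 4328 CPM in BTBR, and its log2 fold change was −0.22 (95% interval −0.75 to 0.30). miR-181b-5p ranged from 1924 to 2588 CPM in B6, and from 1509 to 2628 CPM in BTBR, and its log2 fold change was −0.16 (95% interval −0.62 to 0.30). For each of these guides the BTBR range enclosed most of the B6 range, and the lowest of all 8 mice was BTBR replicate 2. Their adjusted p lay between 0.780 and 0.802 in the same edgeR test.

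Of the 7 members, 0 passed the study's threshold of 0.1 on the adjusted p in edgeR's quasi-likelihood test, where 1.66% of all 422 miRNAs passed (1.18% higher and 0.474% lower in BTBR). At an unadjusted p under 0.05, 0 of the 7 members and 10.9% of all miRNAs were found. With the DESeq2 Wald test and with limma-voom, 0 members passed as well. The median log2 fold change of the members was −0.16, beside 0.02 over all miRNAs, and all 7 lay below 0, as did 49.1% of all miRNAs. Those signs depended on the scaling and on 1 mouse: with libraries scaled by their totals only, which moved the median of all miRNAs up by 0.13 (log2), 3 of the 7 lay below 0, and without BTBR replicate 2 it was 5. After TMM scaling, the strains did not overlap in 1 member, miR-181a-1-3p, which was lower in BTBR, and in 6.64% of all miRNAs (3.32% lower and 3.32% higher in BTBR).

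**Figure D2:**
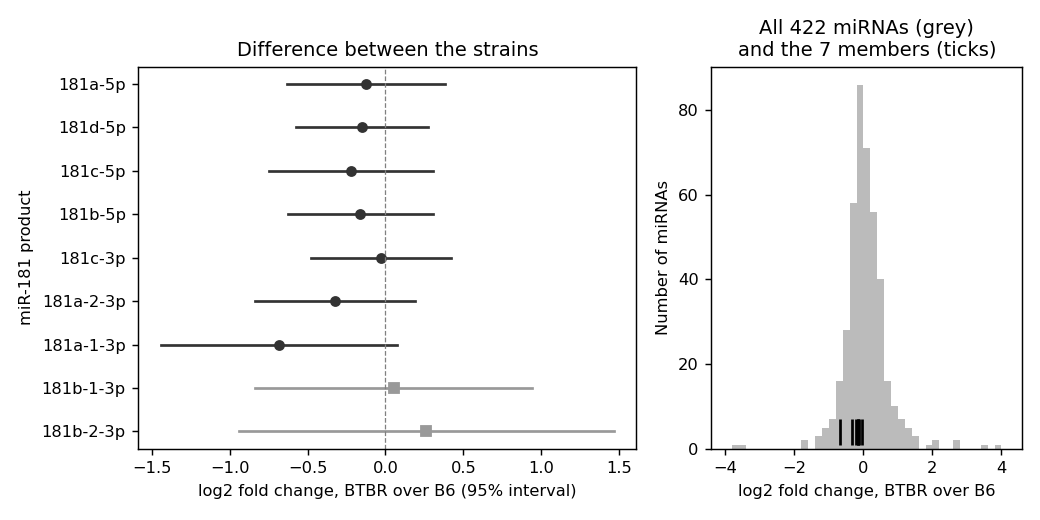
Left, log2 fold change of BTBR over B6 for each miR-181 product with its 95% interval from edgeR (black circles, members; grey squares, the other products of the same hairpins); right, the same quantity for all 422 miRNAs as a histogram in bins of 0.2 with the 7 members as ticks. All 9 intervals on the left include 0, and the member farthest from 0 is miR-181a-1-3p at −0.68.

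The locus-specific arms were then compared by cluster. miR-181a-1-3p, the passenger of chromosome 1, had 11.5, 11.7, 11.7 and 13.5 CPM in B6 mice and 11.5, 4.49, 7.01 and 6.74 CPM in BTBR mice. BTBR replicates 2, 3 and 4 were well below the B6 mice, but replicate 1 lay only 0.0035 CPM under the lowest of them. That gap depended on the scaling. Relative to library totals, BTBR replicate 1 (56 of 4690835 reads) was above B6 replicate 1 (60 of 5792967 reads), so the strains overlapped. The permutation test below used the levels after TMM. Its log2 fold change of −0.68 (standard error 0.35, 95% interval −1.44 to 0.07) had an adjusted p of 0.521 in edgeR's quasi-likelihood test, and an exact two-sided permutation test, with 70 possible assignments, gave p = 0.0286, the smallest value that test can give. The arm was counted with 10 to 70 reads per library. In BTBR replicate 2 its 10 reads allow a level of 2.15 to 8.26 CPM (95% Poisson interval, counting error only), so that the value of 4.49 CPM is loosely known. The summed red blood cell miRNAs had 422, 853, 303 and 309 CPM in B6 mice and 531, 1371, 1364 and 1082 CPM in BTBR mice. The sum was thus above every B6 mouse in BTBR replicates 2, 3 and 4, in which miR-181a-1-3p was well below. In replicate 1 the sum was within the B6 range. Of the 4 summed miRNAs, miR-486a-5p and miR-144-5p had this pattern, but miR-451a and miR-144-3p did not. miR-451a had 26.48 to 40.82 CPM in B6 mice and was above these in every BTBR mouse, with 83.04 CPM in replicate 1. miR-144-3p was above every B6 mouse in BTBR replicates 1, 3 and 4 and within the B6 range in replicate 2. The part of red blood cells in the level of miR-181a-1-3p was not tested.

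miR-181a-2-3p, the passenger of chromosome 2, had 236, 199.6, 197 and 215 CPM in B6 mice and 147, 248, 132 and 151 CPM in BTBR mice. A total of 3 BTBR mice lay below every B6 mouse, while BTBR replicate 2 was the highest of the 8. The log2 fold change was −0.32 (standard error 0.23, 95% interval −0.84 to 0.19, adjusted p = 0.655 from the edgeR test). Without BTBR replicate 2 it was −0.59, with an adjusted p of 0.162, and it did not pass in either fit. With 526 to 1259 reads per library, counting error was small beside these differences between mice.

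miR-181c-3p, the passenger of the pair on chromosome 8, had 504, 468, 484 and 525 CPM in B6 mice and 583, 331, 528 and 499 CPM in BTBR mice. Apart from BTBR replicate 2, which was lowest, the mice of both strains had much the same level, between 468 and 583 CPM. The log2 fold change was −0.03 (standard error 0.21, 95% interval −0.48 to 0.42, adjusted p = 0.974 from the edgeR test), the smallest of the 7 in size. Without BTBR replicate 2 it was 0.09.

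The rarer arms miR-181b-1-3p and miR-181b-2-3p bear on the same loci. miR-181b-1-3p, from chromosome 1, had 6.52 to 14.4 CPM in B6 and 4.94 to 14.4 CPM in BTBR, and its log2 fold change was 0.05 (95% interval −0.84 to 0.94). miR-181b-2-3p, from chromosome 2, had 1.84 to 5.76 CPM in B6 and 1.80 to 7.81 CPM in BTBR, and its log2 fold change was 0.26 (95% interval −0.94 to 1.46). With 4 to 75 reads per library, neither arm had a level that placed its locus above or below B6. In BTBR replicates 3 and 4, where miR-181a-1-3p and miR-181a-2-3p were below every B6 mouse, both arms lay within the B6 range. In BTBR replicate 1, miR-181a-2-3p was below every B6 mouse and miR-181a-1-3p only just under the lowest of them. There miR-181b-2-3p at 7.81 CPM was above the B6 range and miR-181b-1-3p at 14.4 CPM only just above its upper end. Adjusted p were 0.974 and 0.885 in the edgeR test.

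**Figure D3:**
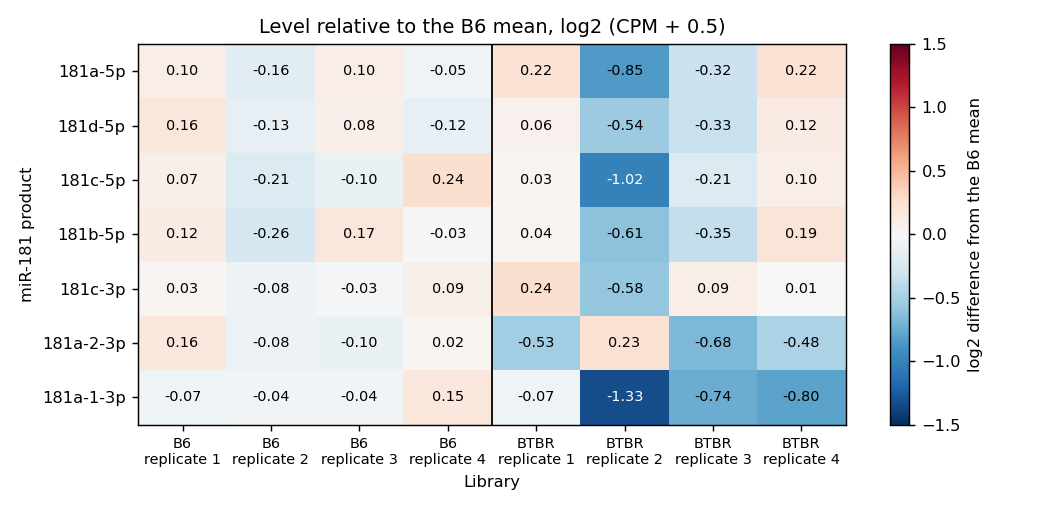
Level of each of the 7 members in each library as the log2 difference of CPM + 0.5 from the B6 mean (red above, blue below, the number printed in each cell). The BTBR replicate 2 column is blue, from −0.54 to −1.33, except for miR-181a-2-3p at 0.23, and miR-181a-1-3p and miR-181a-2-3p are below 0 in BTBR replicates 3 and 4, from −0.48 to −0.80.

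Ratios of reads within a library do not depend on how libraries are scaled, and 10 of them were compared between the strains by exact permutation tests, with p adjusted by Benjamini-Hochberg over the 10. With 4 mice a strain, a single ratio at the smallest possible p of 0.0286 reaches an adjusted p of 0.286. None of the 10 passed 0.1. The strains did not overlap in 2 ratios, both with miR-181a-1-3p, at p = 0.0286 and an adjusted p of 0.143 each in the exact permutation test. Leaving out any 1 BTBR mouse kept this p at its smallest possible value. The adjusted p then changed only with how many of the 10 ratios reached it. Leaving out any 1 B6 mouse raised p to 0.0571 for both ratios, with an adjusted p of 0.286 (exact permutation test).

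The first of these set chromosome 8 against chromosome 1. There were 43.7, 40.0, 41.3 and 38.9 reads of miR-181c-3p per read of miR-181a-1-3p in the B6 mice and 50.6, 73.8, 75.3 and 74.0 in the BTBR mice. The lowest BTBR value exceeded the highest B6 value, and the B6 mice were close together. These ratios divide by few reads of miR-181a-1-3p, 60, 70, 58 and 60 in B6 mice and 56, 10, 28 and 56 in BTBR mice. Counting error in these reads was not estimated for the ratio, so how close the B6 mice were is loosely known. The difference was 0.70 on the log2 scale (standard error 0.14, 95% interval by inverting the permutation test 0.21 to 0.94). BTBR replicate 1 was closest to the B6 mice, and its distance from the other BTBR mice was larger than the spread among those.

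The same arm against its own guide was the other. There were 5200.4, 4269, 5112 and 3979.7 reads of miR-181a-5p per read of miR-181a-1-3p in B6 mice and 5631, 6902, 6359.7 and 9593 in BTBR mice. Every BTBR mouse had more guide reads per passenger read than every B6 mouse. The log2 ratio of passenger to guide differed by −0.58 (BTBR minus B6, standard error 0.19, 95% interval −1.27 to −0.12). With 5 reads added to each count in place of 0.5, it was −0.44, with p = 0.0857 and an adjusted p of 0.429 in the exact permutation test. For comparison, among the 99 hairpins with both arms in the table by name, the ratio of 3p to 5p reads did not overlap between the strains in 2.02%. The guide of this ratio also holds the reads of Mir181a-2, so it is not a ratio of the arms of one hairpin.

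Against chromosome 2, BTBR replicate 2 decided the result. There were 2.14, 2.35, 2.45 and 2.44 reads of miR-181c-3p per read of miR-181a-2-3p in B6 mice and 3.98, 1.34, 4.01 and 3.29 in BTBR mice. A total of 3 BTBR mice were above the B6 range and replicate 2 was below it. The difference of 0.31 on the log2 scale had a 95% interval of −0.87 to 0.91 (exact permutation test, p = 0.486, adjusted p = 0.816), and without replicate 2 it was 0.68. miR-181a-2-3p against miR-181a-5p behaved alike, with 254, 250.5, 303 and 249.8 guide reads per passenger read in B6 mice and 442, 125, 339 and 427 in BTBR mice. Its difference was −0.18 (95% interval −0.82 to 1.28) with all mice and −0.60 without BTBR replicate 2. Without that mouse, a choice made after its values were seen, 4 of the 10 ratios did not overlap between the strains. All 4 held miR-181a-1-3p or miR-181a-2-3p. The ratio of the arms did not overlap in 4.04% of the 99 hairpins with both arms. That share is for arms of the same hairpin. No share was computed for ratios between hairpins, here or with all mice. The 4 ratios share members and each had the smallest p that 35 assignments allow, so their adjusted p of 0.0714 in the exact permutation test, under the threshold of 0.1, counts ratios at that limit and is no measure of their strength.

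The passengers of chromosomes 1 and 2 were not told apart from each other by strain. There were 20.5, 17.0, 16.8 and 15.9 reads of miR-181a-2-3p per read of miR-181a-1-3p in B6 mice and 12.7, 55.2, 18.8 and 22.5 in BTBR mice. Beyond the high value of BTBR replicate 2, the BTBR mice lay on both sides of the B6 mice (difference 0.40, 95% interval −0.68 to 1.73, and −0.0031 without that mouse). For miR-181b-2-3p against miR-181b-1-3p the difference was 0.13 (95% interval −1.58 to 1.26).

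The proportions of the guides to each other overlapped between the strains. The log2 ratio of miR-181b-5p to miR-181a-5p differed between the strains by −0.0028 (95% interval −0.24 to 0.34), that of miR-181c-5p to miR-181a-5p by −0.09 (95% interval −0.48 to 0.32), and that of miR-181d-5p to miR-181c-5p by 0.10 (95% interval −0.31 to 0.83). Within the hairpin Mir181c, whose arms can be matched one to one, there were 8.45, 7.46, 7.78 and 9.07 reads of miR-181c-5p per read of miR-181c-3p in B6 mice and 7.06, 6.03, 6.63 and 8.68 in BTBR mice. The BTBR mice tended to the lower end, but replicate 4 lay among the B6 mice (log2 difference of 3p over 5p 0.21, 95% interval −0.22 to 0.59, exact permutation test p = 0.143, adjusted p = 0.476).

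**Figure D4:**
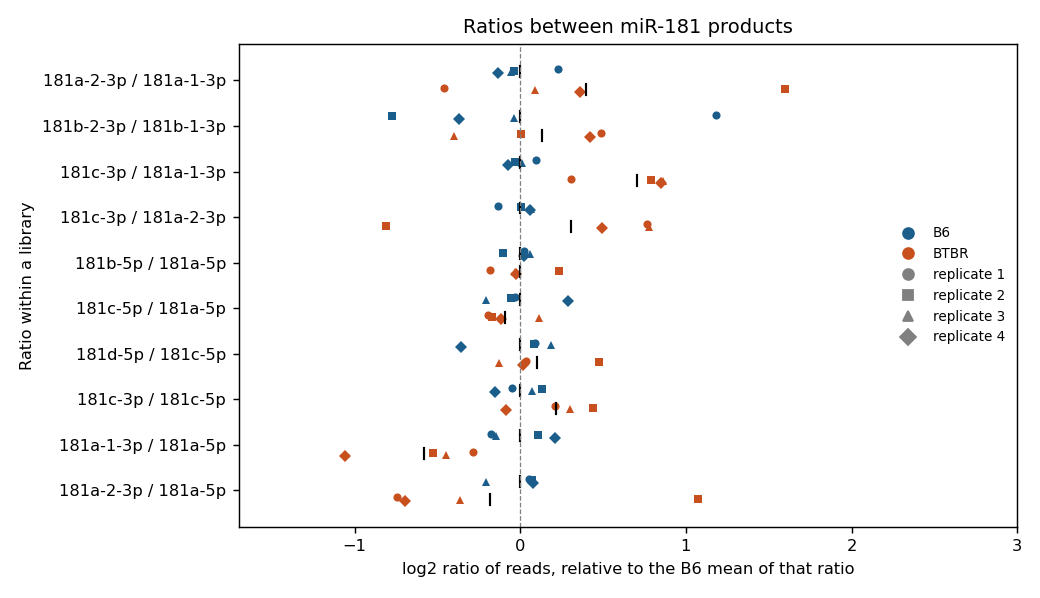
The 10 ratios of reads between miR-181 products, as log2 differences from the B6 mean of each ratio, with 1 point per mouse (blue B6, orange BTBR, shape by replicate) and short vertical bars for the strain means. The strains are apart for miR-181c-3p over miR-181a-1-3p and for miR-181a-1-3p over miR-181a-5p, and BTBR replicate 2 (orange square) lies far right of the others for miR-181a-2-3p over miR-181a-1-3p and over miR-181a-5p, and far left for miR-181c-3p over miR-181a-2-3p.

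The spread of miR-181a-5p was wider among the BTBR mice, a difference that was not tested. The coefficient of variation of miR-181a-5p was 8.73% among B6 and 32.2% among BTBR mice, and for the 66 miRNAs at or above 1000 CPM its median was 16.7% and 20.0%. In BTBR replicate 2, the log2 difference of miR-181a-5p from the mean of the other BTBR mice was −0.88, and 17.3% of all miRNAs were lower still by that measure. miR-181a-2-3p was higher in the same library by 0.79, and 18.2% of all miRNAs exceeded that. The ratio of miR-181a-2-3p to miR-181a-5p was therefore 3.20-fold higher there than in the other BTBR mice, a shift exceeded by 10 of the 99 hairpins with both arms, whose median shift was −0.19 on the log2 scale. The same library had the highest summed level of the 2 lymphocyte miRNAs, 670 CPM. B6 mice had 389 to 462 CPM of these and the other BTBR mice 553, 353 and 382 CPM. The summed myeloid miRNAs went the other way, with 41.7 CPM in BTBR replicate 2, the lowest of the 8 libraries. B6 mice had 46.0 to 61.4 CPM of these and the other BTBR mice 60.4, 69.1 and 63.5 CPM. In the summed red blood cell miRNAs BTBR replicate 2 was close to BTBR replicate 3 and did not stand apart. The part of depth or of other cells in these values was not tested.

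Across the 8 libraries, proportions within the family were most constant between miR-181b-5p and miR-181d-5p. As the measure of likeness, the SD of the log2 ratio of reads over the libraries was used, in which a small value means a constant proportion; it is given as a description, and all miRNAs share the libraries and their composition. This pair, made from different chromosomes and differing in sequence as given above, had an SD of 0.08, and none of the other miRNAs ran closer to miR-181b-5p. miR-181a-5p ran closest to miR-181b-5p, at 0.12, and next closest to miR-181d-5p, at 0.14, while its SD with miR-181c-5p was 0.17. miR-181c-5p and miR-181d-5p, whose hairpins are neighbours, had an SD of 0.24, and 15 other miRNAs ran closer to miR-181c-5p. Whether some reads of such similar sequences were assigned to each other was not tested.

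The passenger arms followed their guides to unequal degrees. The SD was 0.20 between miR-181c-3p and miR-181c-5p, with 4 miRNAs closer to miR-181c-5p. Between miR-181a-5p and its passengers it was 0.40 for miR-181a-1-3p and 0.58 for miR-181a-2-3p, with 84 and 198 of the 421 other miRNAs closer, the latter near the median of 0.59 that miR-181a-5p had with miRNAs outside the family. Outside the family, the miRNAs running most like miR-181a-5p were miR-30b-5p (0.14), miR-381-3p (0.15) and miR-29b-3p (0.19). For miR-181c-5p they were miR-381-3p, miR-16-5p and miR-27b-5p, at 0.15 to 0.20, for miR-181b-5p miR-1843b-5p, miR-27b-5p and miR-381-3p, at 0.13 to 0.19, and for miR-181d-5p miR-1843b-5p, miR-872-5p and miR-30b-5p, at 0.16 to 0.17. None of these passed the threshold between the strains, with adjusted p of 0.601 or more in the edgeR test.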

How the data were processed

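Small RNA libraries from single hippocampi of 4 BTBR and 4 B6 mice were grouped by their titles. The authors removed adapters, checked reads with FastQC 0.11.2, mapped them to GRCm38 with sRNAbench, which uses Bowtie, assigned reads lying inside miRBase coordinates, and deposited whole-number counts per mature miRNA without normalization. Every row has at least 1 read in each library. GRCm38 is a C57BL/6J genome, and whether BTBR reads mapped less well was not tested. No molecular identifiers are described, so the Poisson interval covers counting error only. The intervals of fold changes and of ratios also reflect the spread between mice. In both strains, all 6 pairs of libraries differed beyond sampling noise (chi-square test), so each was kept.

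From these counts, levels (CPM) and fold changes were computed with edgeR 4.0.16 (TMM, quasi-likelihood test, no covariates, no filter, R 4.3.3) over all 422 miRNAs, with Benjamini-Hochberg adjustment and a threshold of 0.1. Single miRNAs, as log2(CPM + 0.5), and ratios, with 0.5 reads added to each count, were compared by two-sided exact permutation tests. Alternatives were other scalings, filters, the replicate block, DESeq2 1.42.0, limma 3.58.1, edgeR's exact test and each mouse left out. The fit was tested on simulated data. The named miRNAs are the members, the other products of their hairpins and, for each guide, the 3 miRNAs with the smallest SD of the log2 ratio. Members, marker lists and tests were chosen with earlier results of these data known. Hairpin positions and sequences are from RefSeq (GRCm38.p6), host genes from GENCODE, and plots were drawn with matplotlib 3.10.9. All 9 products matched a RefSeq sequence.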

Additional observations from a re-analysis of the deposited data

Results flagged for a closer look

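In groups of 4 mice, a library was far from the other 3 by Dixon's criterion in 4 of 34 groups of values tested, where chance gives about 1 in 20. The level of miR-181a-1-3p in B6 replicate 4 was 13.5 CPM, above the other B6 mice at 11.5 to 11.7 CPM. The level of miR-181a-2-3p in BTBR replicate 2 was 248 CPM, above the other BTBR mice at 132 to 151 CPM. The log2 ratio of miR-181c-3p to miR-181a-1-3p in BTBR replicate 1 was 5.65, below the other BTBR mice. The log2 ratio of miR-181a-2-3p to miR-181a-5p in B6 replicate 3 was −8.24, below the other B6 mice.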

How the results depend on the processing

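The members did not pass the threshold under any alternative that was run, and the adjusted p of the 7 stayed between 0.162 and 0.999. Of 125 alternative values of their fold changes, 8 changed sign. With libraries scaled by their totals only, the log2 fold change was 0.0358 for miR-181a-5p, 0.0040 for miR-181b-5p, 0.0011 for miR-181d-5p and 0.13 for miR-181c-3p. miR-181c-3p was at 0.0141 with upper quartile scaling and at 0.0026 when 50 reads were required in every library, a filter that removes miR-181a-1-3p. Leaving out each mouse in turn gave −0.302 to 0.0260 for miR-181a-5p and −0.129 to 0.0871 for miR-181c-3p, both above 0 only without BTBR replicate 2, −0.23 to 0.33 for miR-181b-1-3p and −0.19 to 0.51 for miR-181b-2-3p. Over all miRNAs, 7 passed with all mice, 4 with libraries scaled by totals, 21 with the DESeq2 Wald test, 16 with edgeR's exact test, 4 at a threshold of 0.05, and 3 to 13 with a mouse left out (13 without B6 replicate 2, 4 without BTBR replicate 1, 3 without BTBR replicate 3 or 4). With the replicate number as a block 3 passed, and no member was among them. Mice of the same number did not deviate together (correlations of 0.05, −0.07, −0.15 and −0.15). No label says that the numbers pair mice, so the mice were taken as unpaired. For the ratios the block allows no p under 0.125, so none could pass. Among the ratios, given as BTBR minus B6 on the log2 scale, leaving out a mouse gave −0.0031 to 0.68 for miR-181a-2-3p/miR-181a-1-3p, −0.13 to 0.52 for miR-181b-2-3p/miR-181b-1-3p, 0.65 to 0.84 for miR-181c-3p/miR-181a-1-3p, 0.15 to 0.68 for miR-181c-3p/miR-181a-2-3p, −0.0815 to 0.0570 for miR-181b-5p/miR-181a-5p, −0.16 to 0.0056 for miR-181c-5p/miR-181a-5p, −0.0246 to 0.176 for miR-181d-5p/miR-181c-5p, 0.14 to 0.32 for miR-181c-3p/miR-181c-5p, −0.68 to −0.42 for miR-181a-1-3p/miR-181a-5p and −0.60 to 0.0065 for miR-181a-2-3p/miR-181a-5p. Without BTBR replicate 4, miR-181c-3p/miR-181a-1-3p, miR-181a-1-3p/miR-181a-5p and miR-181c-3p/miR-181c-5p had an adjusted p of 0.0952 in the exact permutation test, each at the smallest p that design allows. The causes of these changes were not tested. The 10 to 70 reads of miR-181a-1-3p per library limit what can be said of chromosome 1.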
